A study of Mus musculus with 3 samples.

Results

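AMP-activated protein kinase (AMPK) subunit genes, the gene of its upstream kinase LKB1 (Stk11) and the genes of the muscle creatine kinases were examined in skeletal muscle lacking FoxO1. The 10 genes were the catalytic alpha subunits Prkaa1 and Prkaa2, the scaffolding beta subunits Prkab1 and Prkab2, the regulatory gamma subunits Prkag1, Prkag2 and Prkag3, Stk11, cytosolic Ckm and mitochondrial Ckmt2. They were found by the transcript accession that the array design gives each probe, and all 10 were present, with 1 probe each, among 32395 genes or accessions on the array. All 10 passed the intensity filter, as did 17460 in all. The knockout group was male C57BL/6 mFoxO1KO mice, which carry an inducible deletion of Foxo1 confined to skeletal muscle, and the control group was male C57BL/6 mice with no deletion. Both groups ate AIN93G diet containing doxycycline at 0.625 g/kg between 8 and 14 weeks of age, and RNA came from lower-limb skeletal muscle. The promoter that drives the deletion, the alleles that control mice carry and the number of animals in each RNA are not given in the sources used here. There were 3 biological replicates of each genotype, and each of 3 arrays carried 1 knockout RNA in Cy5 and 1 control RNA in Cy3, so the spread below is that between array pairs and a dye effect of a single probe cannot be told apart from genotype.

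AMPK is a trimer of 1 alpha, 1 beta and 1 gamma subunit that senses falling cellular energy. AMP and ADP bind the gamma subunit, LKB1 phosphorylates the alpha subunit, and the active kinase turns on fuel uptake and oxidation while it restrains synthesis of fat, glycogen and protein. Mature muscle fibres mainly use the alpha2 and beta2 isoforms, and gamma3 is found mostly in fast glycolytic fibres. The creatine kinases buffer ATP in the same tissue: Ckmt2 in the mitochondrial intermembrane space makes phosphocreatine from ATP, and Ckm at the myofibrils turns it back into ATP during contraction.

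The start-site regions of the genes are shown because FoxO1 is a forkhead factor. Each window runs from 250 bases before to 50 bases after an annotated start (RefSeq, GRCm38.p6), and the forkhead core letters GTAAACA, searched also as their reverse complement TGTTTAC, are in capitals where found. Of 12 windows of the 10 genes, 1 held the letters, against 1199 of 32851 windows of all genes (3.65%). That window was the one of Stk11, with the match beginning at base 17 counted from the start as base 1. The windows of Prkab2, which had the only ratio past the threshold, of Prkag3 and of Ckmt2 are given beside it. A match describes letters only, and no match says nothing about binding elsewhere.
Stk11, chr10:80115545-80115844, + strand: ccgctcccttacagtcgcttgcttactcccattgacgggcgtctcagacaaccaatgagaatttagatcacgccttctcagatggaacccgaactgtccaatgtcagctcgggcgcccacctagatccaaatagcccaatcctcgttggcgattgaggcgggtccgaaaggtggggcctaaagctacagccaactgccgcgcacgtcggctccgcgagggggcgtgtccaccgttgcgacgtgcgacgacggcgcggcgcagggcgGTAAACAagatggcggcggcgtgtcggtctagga
Prkab2, chr3:97657962-97658261, + strand: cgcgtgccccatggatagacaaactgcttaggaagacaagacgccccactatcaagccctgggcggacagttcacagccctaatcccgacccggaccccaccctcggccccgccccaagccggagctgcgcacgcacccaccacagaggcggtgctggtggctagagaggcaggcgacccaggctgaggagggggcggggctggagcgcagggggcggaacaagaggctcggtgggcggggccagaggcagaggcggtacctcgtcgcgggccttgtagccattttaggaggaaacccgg
Prkag3, chr1:74748906-74749205, - strand: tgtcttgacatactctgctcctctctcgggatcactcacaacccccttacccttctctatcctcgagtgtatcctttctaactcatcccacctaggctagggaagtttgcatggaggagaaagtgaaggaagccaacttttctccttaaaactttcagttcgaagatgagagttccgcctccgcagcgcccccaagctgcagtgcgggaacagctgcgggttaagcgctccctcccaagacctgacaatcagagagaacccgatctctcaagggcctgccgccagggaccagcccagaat
Ckmt2, chr13:91876836-91877135, - strand: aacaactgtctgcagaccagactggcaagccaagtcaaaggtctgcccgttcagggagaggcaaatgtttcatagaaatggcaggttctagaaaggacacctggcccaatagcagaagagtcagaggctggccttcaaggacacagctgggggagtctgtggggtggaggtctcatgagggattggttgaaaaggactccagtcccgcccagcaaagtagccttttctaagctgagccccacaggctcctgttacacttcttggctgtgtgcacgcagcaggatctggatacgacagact

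On the arrays, the share of probes clearly over background was 56.1% to 56.9% for knockout RNA and 52.0% to 55.9% for control RNA, and 0 spots were saturated. The brighter Foxo1 probe had 23.9% of the control level in knockout muscle (log2 ratio -2.06 ± 0.49, SD, n = 3, limma, adjusted p = 0.0278), and a second, dimmer probe had 38.1% (-1.39 ± 0.61, with -0.70, -1.64 and -1.84 on the arrays). The position of these probes relative to the deletion was not determined. Of the fast-fibre markers listed, 9 of 10 could be tested, as could 7 of 8 slow-fibre markers. Markers of adipocytes had ratios above 0 whose size varied by array, with a median log2 ratio of 2.89 on array 1, 0.22 on array 2 and 1.84 on array 3 over 8 of 10 genes. Their summed intensity ranged from 101574 to 205995 in knockout RNA and from 40200 to 93108 in control RNA, Lep was below background in both channels of every array, and Ucp1 was not tested. All 8 adipocyte means were above 0, none passed the test (limma), and 7 had an unadjusted p under 0.05. Of all genes tested, 15.3% were higher at that unadjusted p.

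In knockout muscle the genes of the muscle-type AMPK subunits alpha2, beta2 and gamma3 had the lowest ratios of the 10, at 73.7% to 76.8% of the control level, while Ckmt2 had the highest, at 138% of it. Only Prkab2 passed the test, downward. Across all genes tested, 481 of 17460 passed the threshold of 0.05 on the adjusted p of limma (2.75%), with 359 up (2.06%) and 122 down (0.699%), or 1154 up and 51 down with median centring only in place of loess. Of the 10 genes, 0 were higher and 1 lower by that rule, while 3 were higher and 4 lower at an unadjusted p under 0.05, against 15.3% and 11.5% of all genes (26.8% in both directions). The ratio had 1 sign on all 3 arrays for 9 of the 10, against 52.4% of all genes (above 0 for 5, against 27.9%, and below 0 for 4, against 24.5%), and the intensities of the genotypes did not overlap for 5 of the 10, against 25.8%. The median log2 ratio of the 10 was 0.08, against 0.01 over all genes tested. In a bulk sample, fewer cells of a type and less RNA per cell cannot be told apart.

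**Figure D1:**
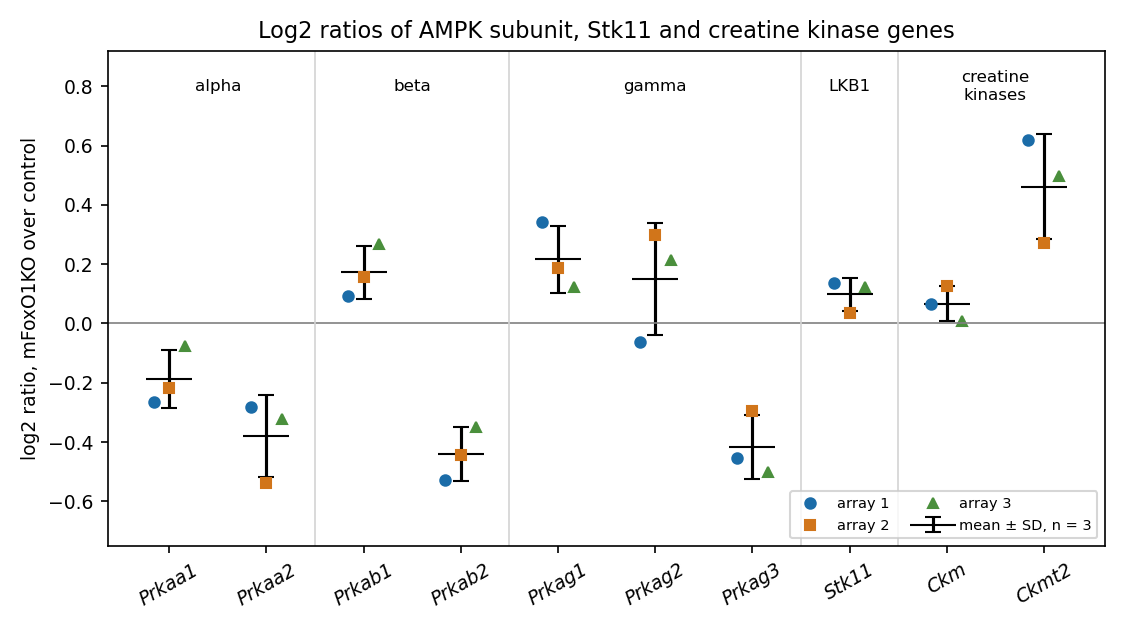
Log2 ratio of mFoxO1KO over control for each gene (y axis), grouped by role (x axis); coloured points are the 3 arrays, and bars show the mean ± SD. Prkaa2, Prkab2 and Prkag3 lie below 0 on all arrays, at means of -0.38, -0.44 and -0.42, and Ckmt2 lies above 0 on all, at 0.46.

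Prkab2, the beta isoform that predominates in muscle and tethers the alpha to the gamma subunit, was measured at normalised log2 intensities of 13.38, 13.27 and 13.58 in knockout muscle, against 13.91, 13.71 and 13.93 in control muscle. Every knockout value lay below every control value, and the fall was of similar size in the 3 pairs. Prkab2 fell by 0.44 ± 0.09 on the log2 scale (SD, n = 3), to 73.7% of control, with a 95% confidence interval of -0.60 to -0.28 (limma, adjusted p = 0.0489). The call lay close to the threshold and held in 6 of 14 processing alternatives. It was lost without replicate 1, without replicate 2 and without replicate 3 (adjusted p of 0.0694, 0.193 and 0.0828), and with median centring only in place of loess the ratio was -0.16 (adjusted p = 0.572), or -0.32 relative to the median of all genes.

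Prkab1, the other beta isoform, was dim, with spot signals of 122, 135 and 169 over local backgrounds of 49, 46 and 52 in the knockout channel, and of 101, 117 and 116 over 38, 42 and 44 in the control channel. Its normalised log2 intensities were 7.05, 7.16 and 7.37 in knockout muscle and 6.95, 7.0 and 7.10 in control muscle. The knockout value was the higher one in each pair, but the genotypes overlapped. The mean log2 ratio of 0.17 ± 0.09 (SD, n = 3) did not pass (limma, adjusted p = 0.171), and was 0.35 with plain background subtraction (adjusted p = 0.106), which adds no offset to the signals.

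The catalytic subunit genes both had ratios below 0. Prkaa2, which encodes the alpha isoform most abundant in muscle, had log2 intensities of 13.21, 13.06 and 13.30 in knockout muscle, against 13.49, 13.60 and 13.62 in control muscle. The genotypes did not overlap, and the difference was largest on array 2. Its ratio was -0.38 ± 0.14 (SD, n = 3), or 76.8% of control, with an interval of -0.57 to -0.19, and did not pass (limma, adjusted p = 0.0680). It passed in 1 of 14 alternatives, the fit of separate channels with the array as a block (adjusted p = 0.0240). With median centring only in place of loess the Prkaa2 ratio was -0.11 (limma, adjusted p = 0.738), or -0.27 relative to the median of all genes.

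Prkaa1, the more widely expressed alpha isoform, had 9.35, 9.26 and 9.24 in knockout muscle, against 9.62, 9.48 and 9.32 in control muscle. The knockout value was lower in each pair, while the highest knockout value exceeded the lowest control value. The ratio was -0.19 ± 0.10 (SD, n = 3) and did not pass (limma, adjusted p = 0.159), and it was 0.01 with median centring only, or -0.15 relative to the median of all genes, which that setting moved to 0.16.

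**Figure D2:**
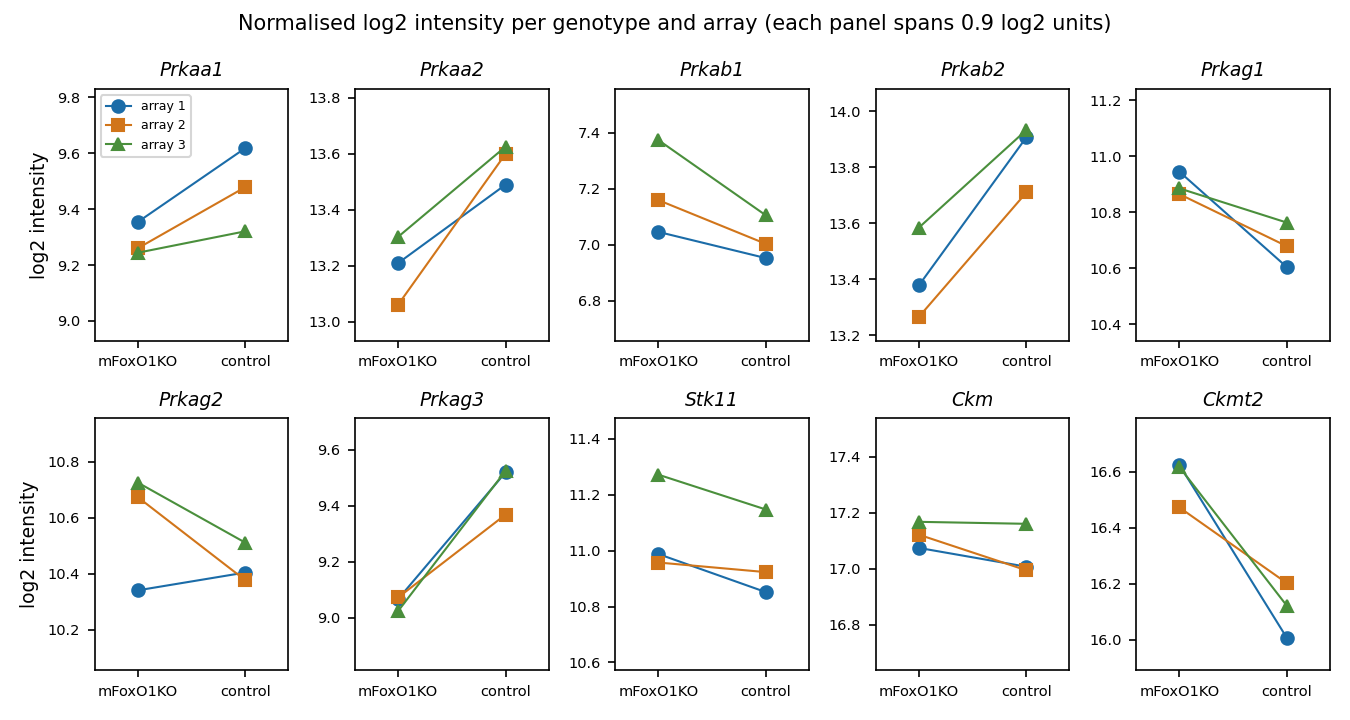
Normalised log2 intensity (y axis, a span of 0.9 in each panel) of each gene in mFoxO1KO muscle (left) and control muscle (right); lines join the pair of 1 array. The genotypes separate for Prkaa2, Prkab2, Prkag1, Prkag3 and Ckmt2 and overlap for the other 5 genes.

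The gamma subunit genes differed in direction. Prkag3, the isoform of fast fibres, had log2 intensities of 9.07, 9.07 and 9.02 in knockout muscle, against 9.52, 9.37 and 9.52 in control muscle. All knockout values lay below all control values, and the knockout values had an SD of 0.03. The ratio of -0.42 ± 0.11 (SD, n = 3), or 74.9% of control, had an interval of -0.59 to -0.24 and missed the threshold (limma, adjusted p = 0.0532). It passed in 3 of 14 alternatives. With median centring only in place of loess the Prkag3 ratio was -0.22 (limma, adjusted p = 0.381), or -0.38 relative to the median of all genes. Beside it, 9 fast-fibre markers had a median log2 ratio of 0.03, from -0.22 for the myosin gene Myh2 to 0.39 for Myh1. None of the markers passed the threshold (limma), with 2 higher and 1 lower at an unadjusted p under 0.05, against 15.3% and 11.5% of all genes. Their summed intensity was 744902 to 766239 in knockout RNA and 709224 to 767778 in control RNA.

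Prkag1, the ubiquitous gamma isoform, was the gene with the most repeats, since its probe was printed as 10 spots on each array. Its log2 intensities were 10.94, 10.86 and 10.88 in knockout muscle, against 10.60, 10.68 and 10.76 in control muscle, without overlap. The 10 spots had mean log2 ratios of 0.34 ± 0.04 on array 1, 0.19 ± 0.04 on array 2 and 0.12 ± 0.03 on array 3 (SD over spots), and every one of them was above 0. The spots of array 1, at 0.29 to 0.42, lay above all spots of array 2, at 0.12 to 0.27, and of array 3, at 0.07 to 0.17. The spots of arrays 2 and 3 overlapped. Over arrays the ratio was 0.22 ± 0.11 (SD, n = 3), or 116% of control, and did not pass (limma, adjusted p = 0.136).

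**Figure D3:**
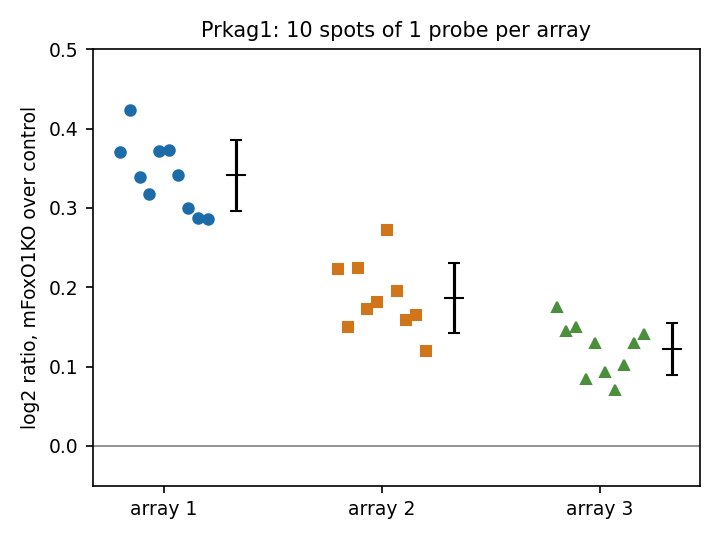
Log2 ratio of mFoxO1KO over control (y axis) for the 10 Prkag1 spots of each array (x axis); bars beside the points show mean ± SD over spots. The spots cluster by array, around 0.34, 0.19 and 0.12, all above 0.

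Prkag2, the third gamma isoform, had 10.34, 10.67 and 10.73 in knockout muscle, against 10.40, 10.38 and 10.51 in control muscle. It was slightly lower in the knockout of array 1 and higher in the other pairs, so the genotypes overlapped. The ratio was 0.15 ± 0.19 (SD, n = 3), with an interval of -0.08 to 0.38 (limma, adjusted p = 0.333). Slow-fibre markers were lowest on the same array, with medians of -0.80, 0.17 and 0.00 on arrays 1, 2 and 3 over 7 of 8 genes, and the eighth, Myh7b, did not exceed background anywhere. None passed (limma), with 1 higher and 1 lower at an unadjusted p under 0.05, against 15.3% and 11.5% of all genes. Their summed intensity was 1609 to 2050 in knockout RNA and 1360 to 1997 in control RNA, and their part in the Prkag2 values was not tested.

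Stk11 had log2 intensities of 10.99, 10.96 and 11.27 in knockout muscle, against 10.85, 10.92 and 11.15 in control muscle. The knockout value was the higher in each pair by a small amount, and the genotypes overlapped. The ratio of 0.10 ± 0.06 (SD, n = 3) had an interval of -0.05 to 0.25 and did not pass (limma, adjusted p = 0.330).

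Ckmt2, the sarcomeric mitochondrial creatine kinase gene, had spot signals of 135845, 118031 and 148044 in the knockout channel and of 48554, 56004 and 51394 in the control channel before normalisation, and normalised log2 intensities of 16.63, 16.47 and 16.62 in knockout muscle, against 16.01, 16.20 and 16.12 in control muscle. All knockout values lay above all control values, by least on array 2. The ratio of 0.46 ± 0.18 (SD, n = 3), or 138% of control, had an interval of 0.24 to 0.68 and missed the threshold (limma, adjusted p = 0.0626), and it passed in 4 of 14 alternatives, among them median centring only (0.86, adjusted p = 0.00503), which raised the median of all genes to 0.16. On arrays 1, 2 and 3 the Ckmt2 ratio was 0.62, 0.27 and 0.50, and the adipocyte marker medians of 2.89, 0.22 and 1.84 had the same order, as did the Stk11 ratios of 0.14, 0.03 and 0.12 and the Prkaa2 ratios, which lay below 0 at -0.28, -0.54 and -0.32. The other members had other orders, such as Ckm at 0.07, 0.13 and 0.01 and Prkab2 at -0.53, -0.44 and -0.35. With 3 arrays few orders are possible, and the share of all genes with this one was not computed. The part of adipocyte RNA in these values was not tested.

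Ckm, the main cytosolic creatine kinase of muscle, had spot signals of 186729, 189185 and 210909 in the knockout channel and of 95782, 96270 and 100529 in the control channel. After normalisation its log2 intensities were 17.07, 17.12 and 17.17 in knockout muscle and 17.01, 16.99 and 17.16 in control muscle, and the genotypes overlapped. The ratio was 0.07 ± 0.06 (SD, n = 3), with an interval of -0.08 to 0.22 (limma, adjusted p = 0.496). It was 0.50 with median centring only (adjusted p = 0.0514) and -0.14 with the deposited log ratio (adjusted p = 0.315).

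Isoforms of the same AMPK subunit, and the creatine kinase genes Ckmt2 and Ckm, were then set against each other within each array. The ratio of Prkab2 was below that of Prkab1 by 0.62, 0.60 and 0.62 on the 3 arrays, a mean difference of -0.61 ± 0.01 (SD, n = 3). The Prkab1 probe was dim, and with plain background subtraction its ratio was 0.35 and the difference -0.80. Prkag3 differed from Prkag1 by -0.63 ± 0.16 and Prkaa2 from Prkaa1 by -0.19 ± 0.16, each below 0 on every array. Ckmt2 exceeded Ckm by 0.55, 0.14 and 0.49, a mean of 0.39 ± 0.22. Prkag2 and Prkag1 did not differ in 1 direction, at -0.07 ± 0.29 (exact sign-flip permutation test, two-sided, p = 1). For the other 4 of 5 pairs that exact permutation test gave p = 0.25, the smallest that 3 arrays allow, and 0.312 after Benjamini-Hochberg adjustment over the 5 pairs. In 14 alternatives the Prkab2 difference ranged from -0.80 to -0.37, the Prkag3 difference from -0.72 to -0.55 and the Ckmt2 difference from 0.32 to 0.52. With 3 arrays this test cannot show that the ratios of a pair are unequal.

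**Figure D4:**
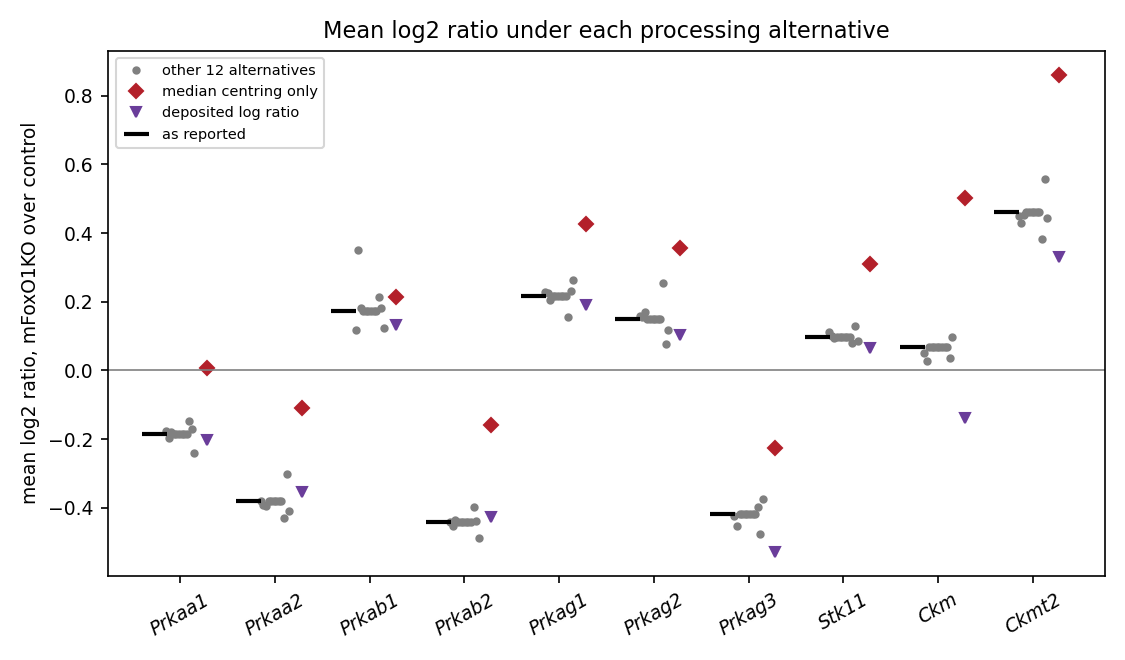
Mean log2 ratio of mFoxO1KO over control (y axis) for each gene (x axis) as reported (black bar), with median centring only (red), with the deposited log ratio (purple) and in 12 other alternatives (grey). Prkab2, Prkag3 and Prkaa2 stay below 0 and Ckmt2 above 0 in all 14, whereas Prkaa1 reaches 0.01 and Ckm ranges from -0.14 to 0.50.

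By the distance between the ratios of the 3 arrays, the genes most like Prkab2 among 12994 named genes were Zfp24, Arrdc2 and Epc2, at distances of 0.02, 0.04 and 0.04 log2 units. Those most like Prkag3 were Rps6kb1, which encodes the ribosomal protein S6 kinase downstream of mTOR, Col24a1 and Klhl13, at 0.04, 0.05 and 0.06.

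The genes around AMPK were described by 5 lists. Over all genes tested, 2.06% rose and 0.699% fell past the threshold (limma). At an unadjusted p under 0.05, 15.3% were higher and 11.5% lower. Of 10 genes of LKB1 partners, other kinases that phosphorylate AMPK and the folliculin complex, 1 rose, 0 fell and 9 did not pass, with a median of 0.10. Of these genes, 3 were higher and 1 lower at an unadjusted p under 0.05. Camkk1, a calcium-dependent kinase that can phosphorylate AMPK, rose by 0.44 ± 0.06 (SD, n = 3, limma, adjusted p = 0.0453), with 0.50, 0.44 and 0.39 on the arrays. Its probe was dim, at mean log2 intensities of 7.33 in knockout and 6.89 in control muscle, near those of Prkab1. The size of the Camkk1 ratio depended on the background step, at 0.80 with plain background subtraction and 1.02 with the deposited log ratio. Its call was lost without each of replicates 1, 2 and 3 and held in 8 of 14 alternatives. Camkk2, its paralogue, had 0.49 ± 0.27 and the folliculin-interacting protein gene Fnip1 -0.25 ± 0.14, neither past the threshold. The LKB1 partner genes Strada, Stradb, Cab39 and Cab39l had ratios of 0.00, -0.01, 0.09 and 0.11 and were chosen after their values were seen. Further, dimmer probes had 0.17 ± 0.05 for Stradb and 0.21 ± 0.10 for Cab39 (SD, n = 3). Those of Cab39l had 0.09 ± 0.06 and -0.07 ± 0.12.

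Among 11 of 13 AMPK-related kinases, which LKB1 also activates in most cases, 0 passed in either direction (limma), and the median was 0.11. At an unadjusted p under 0.05, 5 were higher and 1 lower, against 15.3% and 11.5% of all genes. The median of these kinases ranged from 0.10 without a filter to 0.27 with plain background subtraction, and was 0.24 with the deposited log ratio. The smallest p-values were those of Nuak2 at 0.26 ± 0.04, Snrk at 0.37 ± 0.16 and the salt-inducible kinase gene Sik1 at 0.74 ± 0.46 (SD, n = 3). Nuak2 was dim, at mean log2 intensities of 7.74 in knockout and 7.47 in control muscle. Of 19 of 20 genes of AMPK substrates, 2 rose, 2 fell and 15 did not pass, with a median of 0.13. Over all genes, 2.06% rose and 0.699% fell. At an unadjusted p under 0.05, 7 substrate genes were higher and 2 lower. Acaca, whose product AMPK inhibits to limit fat synthesis, rose by 0.66, and Ppargc1a, a coactivator of mitochondrial genes, by 1.35. Tbc1d4, a brake on glucose transporter traffic, fell by 0.65, and Pfkfb3, which makes an activator of glycolysis, fell by 1.76. Of 14 alternatives the calls held in 10 for Acaca, 4 for Ppargc1a, 7 for Tbc1d4 and 10 for Pfkfb3. All of these calls were lost without replicate 2 (limma, adjusted p of 0.0627 to 0.167). That of Ppargc1a was also lost without replicate 1 and without replicate 3 (0.0557 and 0.0636), that of Tbc1d4 without replicate 1 (0.0577) and that of Acaca without replicate 3 (0.0767). A second, dimmer Tbc1d4 probe had -0.29 ± 0.18, and the mean of both probes was -0.47 (adjusted p = 0.0577), while a second Pfkfb3 probe had -1.11 ± 0.27 and a second Ppargc1a probe 1.27 ± 0.57. Tbc1d1, the relative of Tbc1d4 in glucose transporter traffic, had 0.50 ± 0.18, and the glycogen synthase gene Gys1 had 0.37 ± 0.12 (limma, adjusted p of 0.0572 and 0.0666), both above 0 on every array. The ratios of Acaca (0.79, 0.50 and 0.70 on arrays 1, 2 and 3), Tbc1d1 (0.71, 0.35 and 0.44) and Gys1 (0.49, 0.24 and 0.37) had the order of the adipocyte marker medians, whose part in them was not tested. Those of Pfkfb3, Ppargc1a and Tbc1d4 had other orders, and the share of all genes with the adipocyte order was not computed. The paired genes Tbc1d1 and Tbc1d4 thus stood on opposite sides of 0, although Tbc1d1 did not pass.

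Genes of the nucleotides and of the creatine that feed these enzymes had medians close to 0 or below it, though both medians were above 0 with median centring only (0.18 and 0.12, where the median of all genes was 0.16). The nucleotide median was also above 0 with no background subtraction (0.02), plain subtraction (0.02) and scale normalisation (0.008). The same held with the mean of a gene's probes (0.05) and without replicate 1 (0.002). Of 13 of 14 adenine nucleotide genes 0 passed (limma), 0 were higher and 1 lower at an unadjusted p under 0.05, and the median was -0.02. Over all genes tested, 15.3% were higher and 11.5% lower at that unadjusted p, and 2.06% rose and 0.699% fell past the threshold. Ampd1, the muscle AMP deaminase gene, which removes AMP during exercise, was the lowest at -0.32 ± 0.06 (limma, adjusted p = 0.0626), with -0.26, -0.38 and -0.32 on the arrays, and Adsl, a gene of purine synthesis, had 0.15 ± 0.11. Of 5 genes of other creatine kinases, creatine synthesis and transport 0 passed (limma). At an unadjusted p under 0.05, 0 of them were higher and 2 lower, against 15.3% and 11.5% of all genes. Gatm, which makes the creatine precursor guanidinoacetate, had -0.31 ± 0.03, with -0.31, -0.27 and -0.33 on the arrays (limma, adjusted p = 0.0608). Slc6a8, the creatine transporter gene, had -0.28 ± 0.05, with -0.32, -0.23 and -0.30 (limma, adjusted p = 0.0712). The SD of each was under that of every one of the 10 AMPK, Stk11 and creatine kinase genes. Gatm was dim, however, at mean log2 intensities of 7.30 in knockout and 7.60 in control muscle. The offset added to all signals holds down ratios and their spread at such levels. The third by p-value, the ubiquitous mitochondrial creatine kinase gene Ckmt1, had 0.11 ± 0.09.

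**Figure D5:**
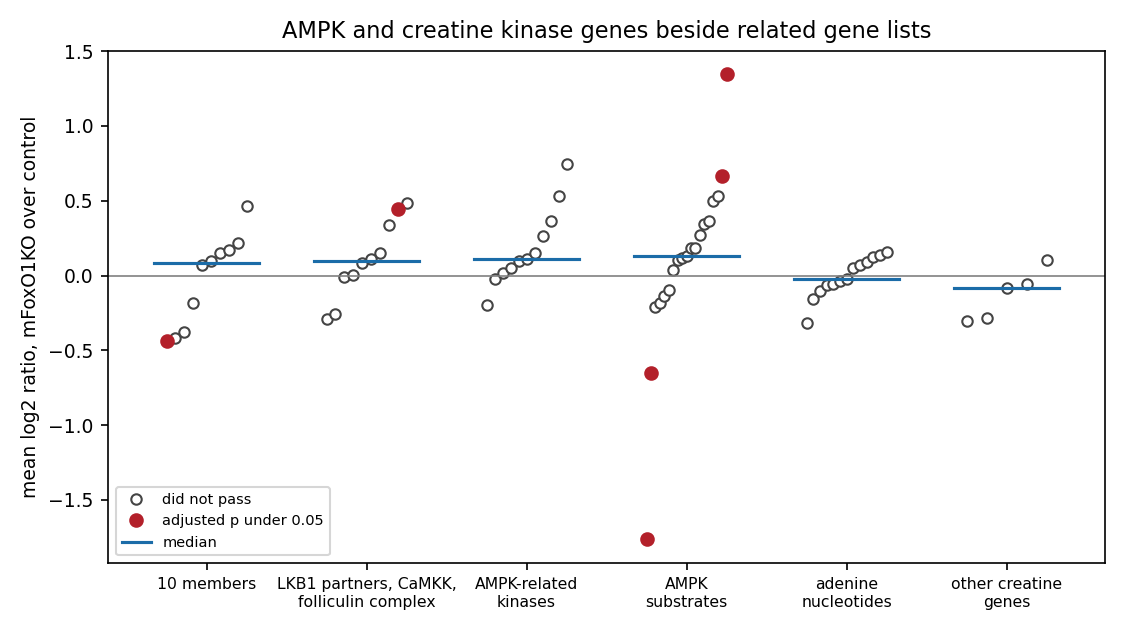
Mean log2 ratio of mFoxO1KO over control (y axis) for the 10 genes and 5 related lists (x axis); filled points passed an adjusted p of 0.05, open points did not, and blue bars are medians. Medians lie between -0.08 and 0.13, and 1 of the 10 genes, 1 gene of the LKB1 partner list and 4 AMPK substrates passed.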

How the data were processed

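RNA of 3 knockout and 3 control replicates was hybridised in pairs to 3 Agilent 2-colour arrays on 1 slide, from 0.2 µg of total RNA each per the labels. The deposited files hold spot and local background median intensity values as scanned, and intensity values that Agilent Feature Extraction had processed (version 11.5.1.1 per the file headers, 9.3.2.1 per the submitters' processing notes). The deposited log10 ratio is processed Cy5 (knockout) over Cy3 (control). It equalled log10 of that quotient within 0.001 in 75.7% of spots and was 0 in the others. No gene name column was present, so probes were named by matching accessions to RefSeq (GRCm38.p6), which named 27508 of 39429 probes (69.8%).

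Median signals were corrected by normexp (offset 50) and loess-normalised within arrays, control spots having weight 0 (limma 3.58.1, R 4.3.3), and 281 to 319 outlier spots per array were left out. A probe was kept if well above background in 1 channel on all 3 arrays, in at least a share of 0.5 of its spots, and the brightest probe stood for a gene. Log2 ratios, which the array pairs by design, were tested against 0 two-sided by lmFit and eBayes, and p-values were adjusted over 17460 genes (Benjamini-Hochberg). The log2 intensity per genotype came from an additional Aquantile step that leaves ratios unchanged. The fit was tested on simulated data. A replicate is 1 array pair. The genes and lists were chosen with earlier results of these data known. Named are all 10 genes, list genes past the threshold and the 3 with the smallest p of each list, and the 3 nearest genes of the 2 members with the smallest p, except 1 list gene that is not reported here. The number of arrays limits the precision, and all arrays share 1 slide, so no batch could be fitted. Alternatives changed background, signals, normalisation, filter, probe, variance model, pairing and replicates.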

Additional observations from a re-analysis of the deposited data

How the results depend on the processing

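The counts of genes past the threshold, 481 as reported (74.6% of them higher), moved to 264 with plain background subtraction (85.2% higher), 212 with the deposited log ratio, 842 with scale normalisation between arrays, 55 with both channels above background and 747 without a filter. Median centring only gave 1205 (1154 higher, 51 lower, 95.8% higher) and shifted the median of all genes to 0.156. In fits of the separate channels the count was 1651 with the array as a replicate block (63.1% higher) and 216 without the block. Leaving out 1 replicate gave 50 to 434 genes, lowest without replicate 2. Among the 10 genes, 1 passed as reported, and 0 with plain subtraction, the deposited log ratio, both channels above background, no replicate block or any replicate left out (0 to 0), 2 without a filter, 2 with an intensity trend, 3 with scale normalisation and 4 with the block. Prkab2 no longer passed at -0.45 with plain subtraction, -0.43 with the deposited log ratio, -0.16 with median centring only, and an unchanged -0.44 with both channels above background (adjusted p = 0.0577) or without the block (adjusted p = 0.103). Without 1 replicate it had -0.49 to -0.40, and its adjusted p ranged from 0.0214 to 0.572 over 14 alternatives. Prkag3 passed at -0.42 with scale normalisation, without a filter and with the block. Ckmt2 passed at 0.86 with median centring, 0.45 with scale normalisation, and 0.46 with the trend and with the block. Prkaa2 passed at -0.38 with the block. Signs turned for Ckm with the deposited log ratio (-0.14), for Prkaa1 with median centring (0.00657, still -0.15 relative to the shifted median of all genes) and for Prkag2 minus Prkag1 without replicate 1 (0.10). The alternatives for such isoform differences were chosen after seeing the data. The causes were not tested. The other 6 genes kept their side of the threshold in all 14 alternatives. Of the related lists, the AMPK substrates had 4 genes past the threshold as reported and 0 to 7 otherwise, the LKB1 partners 1 and 0 to 1, the AMPK-related kinases 0 and 0 to 3, the adenine nucleotide genes 0 and 0 to 1, and the creatine genes 0 and 0 to 2. Over 15 results on these lists and their called genes, 147 recomputed values were taken as the same, 32 moved and 31 lost their call. The same meant a kept call, a median within the spread between arrays, or a count equal or close to that reported. For example, 6 AMPK substrates past the threshold with scale normalisation, against 4 as reported, were taken as the same. The dim Prkab1 probe is limited by signal over background.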

Other observations

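Certain fibre-type genes, chosen after their values were seen, differed between the array pairs more than any of the 10 AMPK, Stk11 and creatine kinase genes did. Myh2, the myosin gene of fast oxidative fibres, had log2 ratios of -1.69, -0.34 and 1.36 on arrays 1, 2 and 3, and the slow myosin light chain gene Myl3 had -0.91, 0.37 and 0.89. Over the same arrays Prkag3 had -0.45, -0.30 and -0.50 and Prkab2 -0.53, -0.44 and -0.35. The part of fibre type in these values was not tested.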
